A study of Mus musculus with 768 samples.

Results

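The genes described here are 7 genes of the SV2 and synaptotagmin families, Sv2a, Sv2b, Sv2c, Syt1, Syt4, Syt6 and Syt10, of 24489 genes counted in single nuclei of the mouse striatum. They were taken by name from the count table and followed through D1-like, D2-like and interneuron-like nuclei of 2 plates and along a patch or matrix leaning. The wells, each with 1 nucleus, were split evenly between 2 genotypes of untreated C57BL/6 mice, and H2BG is a nuclear reporter that both carry. In Oprm1-Cre:H2BG mice Cre follows the mu opioid receptor gene, which marks the patches (striosomes), and in Slc32a1-Cre:H2BG mice it follows the vesicular GABA transporter gene of inhibitory neurons. The labels used here name no age and no number of animals, each genotype fills 1 plate, and a genotype therefore counts as 1 sample: values are given without a test, and each interval beside a value covers counting error only. Reads of Eif2s3y, on the Y chromosome, came to 226.03 CPM on the Oprm1-Cre plate and 0 on the Slc32a1-Cre plate, and reads of Xist to 2.83 and 1888 CPM, so sex, plate, animals and genotype cannot be told apart. CPM here means reads of a gene per 1000000 reads on genes, from reads summed over the nuclei of a group unless a value is said to be that of a nucleus, and nuclei are named by the genotype of their plate.

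SV2 proteins are transporter-like glycoproteins of synaptic vesicles. SV2A is found in most neurons and is the binding site of the antiseizure drug levetiracetam, SV2B and SV2C have narrower ranges, SV2C is known for its abundance in the basal ganglia, and the family serves botulinum neurotoxin as a receptor on nerve terminals. Synaptotagmins are vesicle proteins with a pair of C2 domains. Synaptotagmin 1 is the calcium sensor of fast, synchronous transmitter release. Synaptotagmin 4 lacks full calcium binding in its first C2 domain and sits on dense-core and postsynaptic vesicles, and synaptotagmin 6 and synaptotagmin 10 belong to a group of disulfide-linked calcium-binding members, of which synaptotagmin 10 acts in the release of IGF-1 in the olfactory bulb.

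The 3 SV2 genes lie on different chromosomes of mm10 (GENCODE M21): Sv2a at chr3:96181151-96195521 on the plus strand, Sv2b at chr7:75114894-75309262 on the minus strand and Sv2c at chr13:95954594-96132577 on the minus strand. The bases before their starts are shown, as RefSeq gives them for GRCm38.p6, 5′ to 3′ on the strand of the gene. Any relation of these bases to the levels was not tested. The windows are chr3:96180977-96181150, chr7:75309263-75309512 and chr13:96132578-96132827. Capitals mark the matches of a search on both strands for 4 motifs: TATAAA of the TATA box, GGGCGG of the GC box, TGACGTCA of the cAMP response element and CACGTG of the E-box. No matches overlap one another here.

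Sv2a: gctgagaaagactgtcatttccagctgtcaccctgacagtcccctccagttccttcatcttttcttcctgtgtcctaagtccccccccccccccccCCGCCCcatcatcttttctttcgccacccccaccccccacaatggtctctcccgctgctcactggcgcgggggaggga
Sv2b: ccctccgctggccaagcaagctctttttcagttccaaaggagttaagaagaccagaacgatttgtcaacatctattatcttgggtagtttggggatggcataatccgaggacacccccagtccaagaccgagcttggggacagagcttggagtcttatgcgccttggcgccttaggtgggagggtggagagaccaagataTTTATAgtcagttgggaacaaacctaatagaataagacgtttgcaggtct
Sv2c: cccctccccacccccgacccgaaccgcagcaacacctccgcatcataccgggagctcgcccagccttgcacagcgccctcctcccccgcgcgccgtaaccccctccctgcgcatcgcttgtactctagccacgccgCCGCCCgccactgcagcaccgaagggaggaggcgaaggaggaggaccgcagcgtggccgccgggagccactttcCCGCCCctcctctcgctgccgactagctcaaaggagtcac

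RefSeq gave 4 starts for Sv2b and 1 each for Sv2a and Sv2c. The Sv2b window shown is that of the start at the annotated 5′ end of the gene, and its other starts were not searched. The bases in this Sv2b window held 48.8% G or C and 1 TATAAA match, printed as its reverse complement, and no GGGCGG. Those before Sv2a held 61.5% G or C with 1 GGGCGG match, and those before Sv2c 70.8% with 2, both also on the opposite strand. Of all 32851 promoter windows of 250 bases, 12.4% held TATAAA, 32.7% GGGCGG, 1.55% TGACGTCA and 6.02% CACGTG, and the median window held 52.4% G or C. The Sv2a stretch is shorter than these windows by 76 bases, which lie inside the annotated gene and are not shown. A match of letters is a description and not a binding site.

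The synaptotagmin genes lie at chr10:108497650-109010982 (Syt1, minus strand), chr18:31437808-31447406 (Syt4, minus), chr3:103575231-103645569 (Syt6, plus) and chr15:89782393-89841860 (Syt10, minus). All 7 are protein-coding genes. Syt1 overlaps Gm5136 on the same strand, whose reads came to 0.937% of those of Syt1. The other annotated genes that overlap a member have no entry under their symbols in the table, and the sources used here do not say whether counting used strand.

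Filters on genes and reads left 736 nuclei, after 29 Oprm1-Cre and 3 Slc32a1-Cre wells were dropped, with a median of 169398 reads on genes (22727 to 581313) per Oprm1-Cre nucleus and 175337 (34513 to 487842) per Slc32a1-Cre nucleus. Clusters were made without the 7 genes and without other vesicle genes. Spiny projection neuron-like (SPN-like) nuclei, like the output neurons of the striatum, numbered 705. Of them 495 were D1-like by the markers of the direct pathway, 300 of these Oprm1-Cre, which made up 84.5% of kept Oprm1-Cre and 51.2% of kept Slc32a1-Cre nuclei. Nuclei that were D2-like by the markers of the indirect pathway made up 6.76% of Oprm1-Cre nuclei, 24 in number, and 38.8% of Slc32a1-Cre nuclei, and 17 and 21 SPN-like nuclei were undecided. The cluster with the most D1-like nuclei differed between the plates. One led by Pdyn, Tac1 and Sema5b held 45.7% of Oprm1-Cre and 12.8% of Slc32a1-Cre D1-like nuclei, and one led by Drd1, Xist and Lingo2 held 7.33% and 59%.

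The 31 interneuron-like nuclei, 14 and 17 by plate, fell into a Th/Trh-led sub-cluster (10 and 3), a Pthlh/Kit-led one (1 and 9) and an Sst/Npy-like one (3 and 5). The 10 SPN markers summed to 780 and 816 CPM in interneuron-like nuclei of the Oprm1-Cre and Slc32a1-Cre plates, against 11316 and 11040 CPM in D1-like nuclei. The 5 oligodendrocyte markers summed to 306.5 and 266.6 CPM in D1-like nuclei of those plates, those of oligodendrocyte precursors to 86.5 and 36.7 CPM, those of astrocytes to 25.6 and 22 CPM, and those of excitatory neurons, microglia, vessels and ependymal cells to at most 5.39 CPM each. Undecided nuclei, which count as SPN-like, held more. The 21 of the Slc32a1-Cre plate had 6081 CPM of oligodendrocyte and 927.6 CPM of cholinergic interneuron markers. Undecided nuclei of the Oprm1-Cre plate had 524.8 and 130.9 CPM of these. The part of these other markers in the results was not tested. Each plate holds 1 interneuron-like nucleus without a read of the genes that name its sub-cluster. The only Pthlh/Kit-led nucleus of the Oprm1-Cre plate had no read of Pthlh or Kit, with 1815 CPM of Drd1 and 1039 CPM of Penk, and 1 Th/Trh-led nucleus of the Slc32a1-Cre plate had no read of Th or Trh and 2457 CPM of Penk. Values that rest on them are given with and without them. Reads of projection neuron markers were not confined to them. The 7 D1 markers summed to 1817 CPM in Sst/Npy-like nuclei of both plates, against 146.1 in Th/Trh-led and 260.3 CPM in Pthlh/Kit-led nuclei. Single Sst/Npy-like nuclei had up to 1029 CPM of Drd1, and a Th/Trh-led nucleus with Th and Trh reads had 1186 CPM of Penk. The part of these reads in the results was not tested.

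In D1-like nuclei, Syt4 and Syt1 were the most abundant of the 7 genes per length of exon. Syt4 stood at 186.5 CPM per kb of exon in Oprm1-Cre and 232.2 in Slc32a1-Cre nuclei, and Syt1 at 145.97 and 177.2 CPM per kb. Sv2a followed with 95.9 and 75.2 CPM per kb in the plates in the same order, and the order of the lower 4 differed between plates. Among Oprm1-Cre nuclei Syt6 (48.6 CPM per kb) came before Sv2b (16.4), Sv2c (11.7) and Syt10 (10.5), while among Slc32a1-Cre nuclei Sv2b (43.3) came before Syt6 (32.6), Syt10 (23.8) and Sv2c (11.9).

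**Figure D1:**
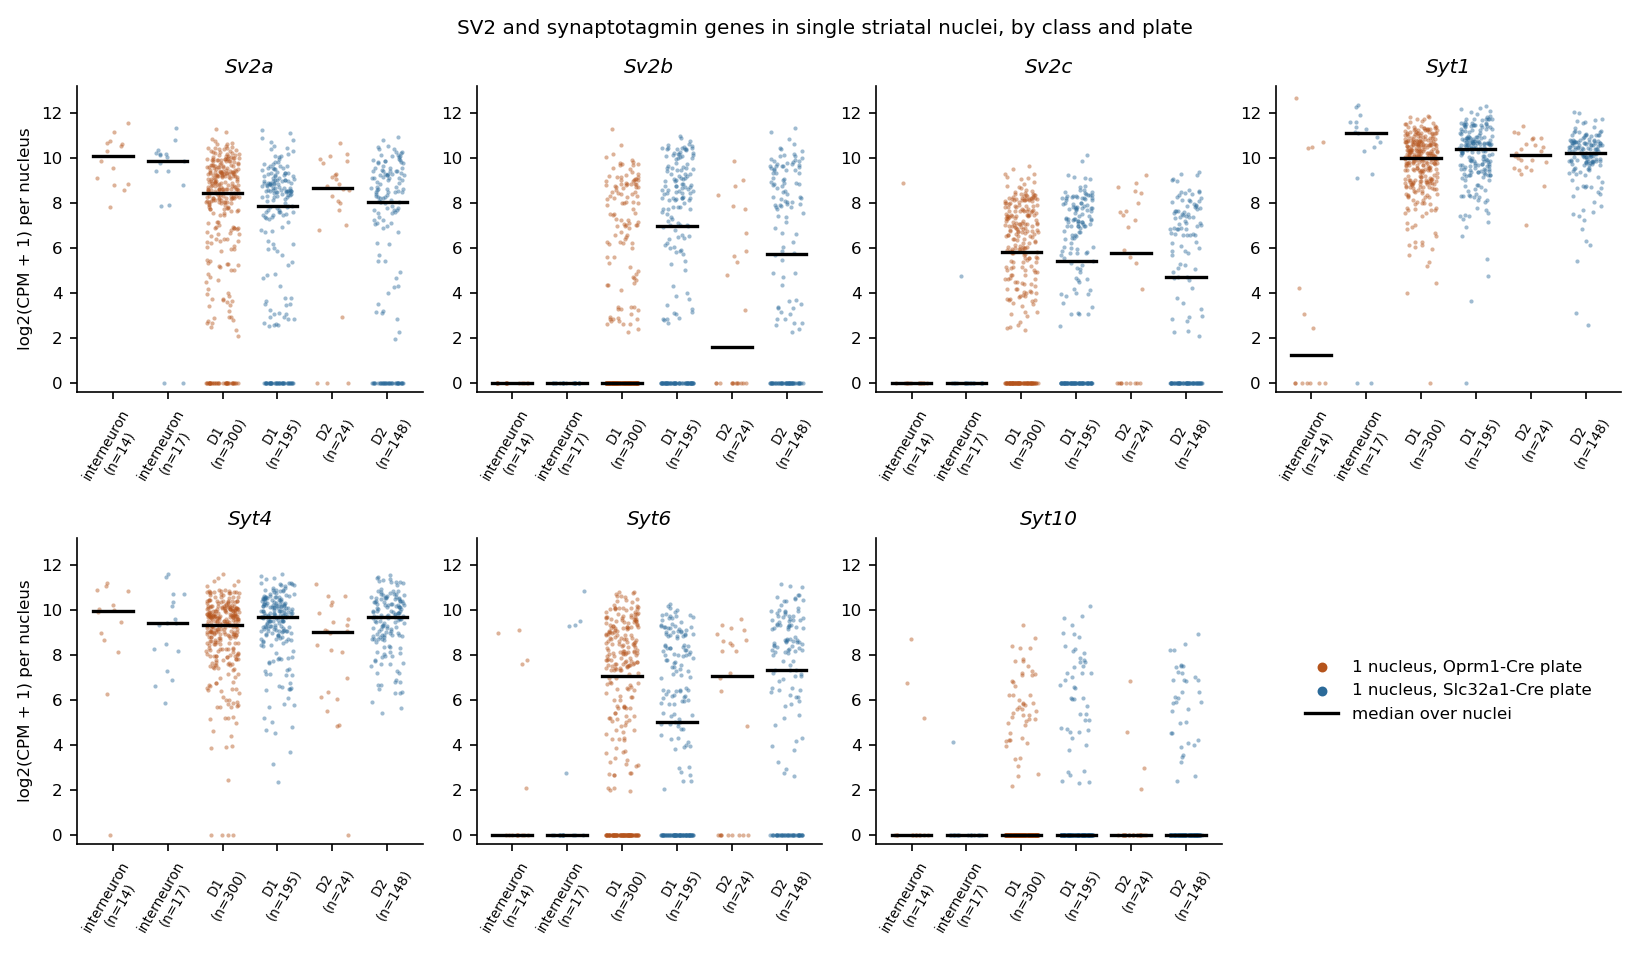
Each point is 1 nucleus, with its log2(CPM + 1) of the gene on the vertical axis, by class and plate, and bars are medians over nuclei. Points at 0 are nuclei without a read: no interneuron-like nucleus has a read of Sv2b, Syt1 and Syt4 are read in nearly every D1-like and D2-like nucleus, and Syt10 has a median of 0 in all groups.

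Sv2b was the SV2 gene that differed most between the plates. Its D1-like level was 137.2 CPM (134.2 to 140) on the Oprm1-Cre plate against 363.1 CPM (356.9 to 369.5) on the Slc32a1-Cre plate, a log2 ratio of -1.37 after adding 5 CPM to both. After thinning each nucleus to 50000 reads, 34.2% of Oprm1-Cre (28.9% to 39.9%, exact binomial) and 61.3% of Slc32a1-Cre D1-like nuclei (54.1% to 68.2%) had an Sv2b read, and 39% and 66.7% had one without thinning. A single D1-like nucleus had 0 to 2510 CPM with a median of 0 on the Oprm1-Cre plate, and 0 to 2007 CPM with a median of 125.6 on the Slc32a1-Cre plate. The nuclei of the plates overlapped over almost their whole range, and the plates differed in how many nuclei lacked the gene as well as in the sums.

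D2-like nuclei showed the same direction for Sv2b, with 92.4 CPM (83.3 to 102.1) in the 24 Oprm1-Cre nuclei against 336.1 CPM (329.5 to 342.7) in Slc32a1-Cre nuclei, a log2 ratio of -1.81. A single Oprm1-Cre nucleus carried 26% of those reads, and 70.2 CPM were left without it.

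Sv2a ran the other way, at 444 CPM (439 to 450) in Oprm1-Cre and 348.7 CPM (342.5 to 354.9) in Slc32a1-Cre D1-like nuclei, a log2 ratio of 0.35. It was read in 82.9% of thinned Oprm1-Cre and 70.6% of thinned Slc32a1-Cre D1-like nuclei. The D2-like levels of Sv2a were 559 and 389 CPM, a log2 ratio of 0.52. Sv2c, with 113.8 CPM (111.04 to 116.7) in Oprm1-Cre and 115.2 CPM (111.7 to 118.8) in Slc32a1-Cre D1-like nuclei, had intervals that overlapped and a log2 ratio of -0.02. Its thinned share of nuclei was 65.4% (59.7% to 70.8%) and 57.2% (49.9% to 64.3%).

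Syt1 was read in 99.3% of thinned Oprm1-Cre and 99% of thinned Slc32a1-Cre D1-like nuclei, at 1217 and 1477 CPM, a log2 ratio of -0.28. Without thinning, 1 D1-like nucleus of each plate and no D2-like nucleus lacked a Syt1 read. Syt4 was nearly as widespread, read in 97% and 98.5% of thinned D1-like nuclei at 726 and 904 CPM, a log2 ratio of -0.31. Both genes were therefore read in almost every D1-like nucleus, and their ratios between plates were small beside that of Sv2b.

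Syt6 and Syt10 were read in fewer nuclei. Syt6 had 283.3 CPM (278.9 to 287.8) in Oprm1-Cre against 190 CPM (185.7 to 194.8) in Slc32a1-Cre D1-like nuclei, a log2 ratio of 0.56, with thinned shares of 66.4% and 55.7%. Its D2-like direction was the opposite, with 201.5 CPM (187.99 to 215.6) on the Oprm1-Cre plate against 365.996 CPM (359.1 to 372.95) on the Slc32a1-Cre plate, a log2 ratio of -0.85. Syt10 had 19.3 CPM in Oprm1-Cre against 43.9 CPM in Slc32a1-Cre D1-like nuclei (log2 ratio -1.01), and 6.55 against 26 CPM among D2-like nuclei (-1.43). A thinned read of Syt10 was found in 13.8% and 21.6% of D1-like nuclei in the same order of plates, and 1 nucleus carried 12.1% and 12.5% of its D1-like reads.

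Past a log2 ratio of 1 in either direction, 2 of the 7 genes, Sv2b and Syt10, were lower in Oprm1-Cre D1-like nuclei and none was higher, where 1.86% of 11019 genes were lower and 2.90% higher. The same 2 were lower in D2-like nuclei, where 14.3% of 10975 genes were lower and 9.24% higher. The Syt10 call lies at the limit and was lost among D1-like nuclei under 3 other settings, by less than 0.05.

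**Figure D2:**
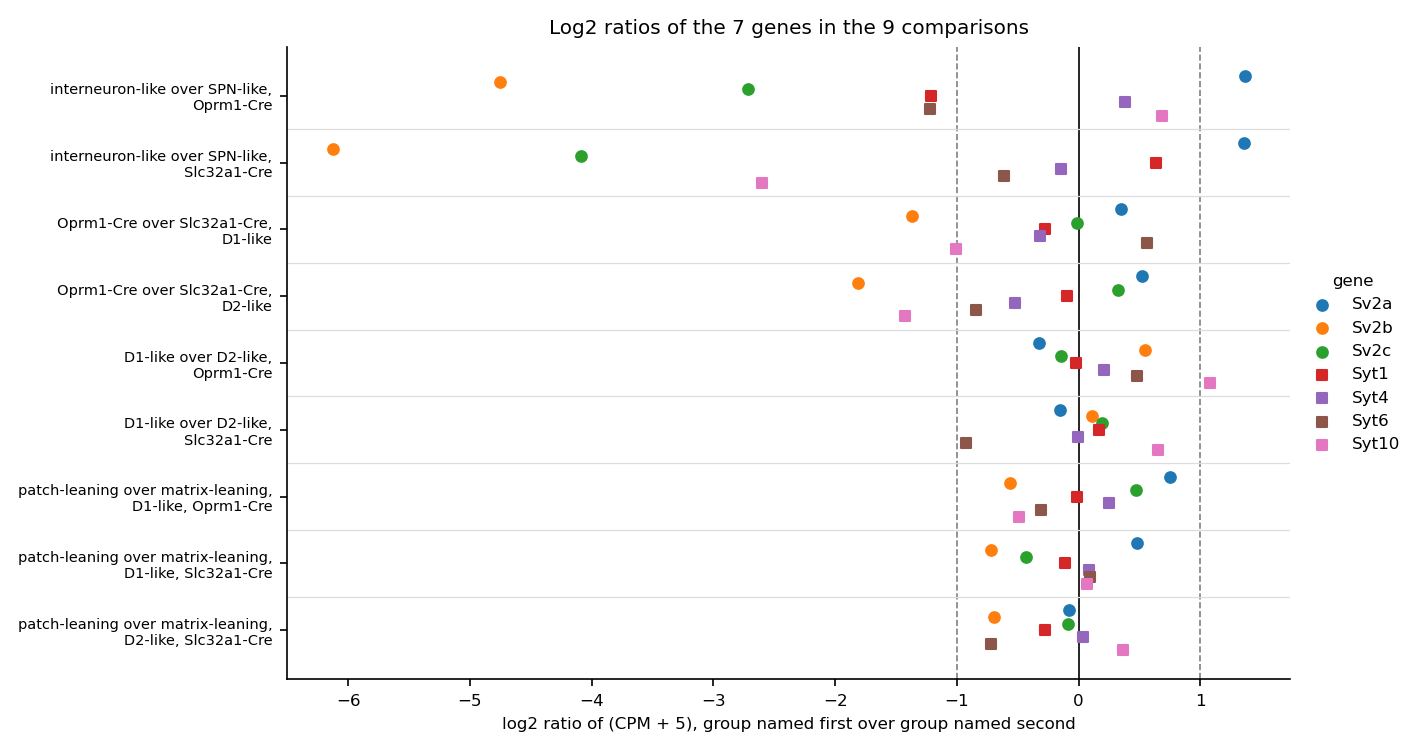
The horizontal axis is the log2 ratio of CPM + 5 of the group named first over the group named second, 1 row per comparison, with circles for SV2 genes and squares for synaptotagmins, and dashed lines at -1 and 1. Sv2a lies right of 1 in both interneuron-like rows, Sv2b left of -1 in the 4 upper rows, and no gene passes either line in the 3 patch-leaning rows. The interneuron-like Sv2b points stand for 0 reads and depend on the added CPM.

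Within a plate, Syt10 alone passed a log2 ratio of 1 between D1-like and D2-like nuclei, and only on the Oprm1-Cre plate. On the Slc32a1-Cre plate, where both classes are well filled, Syt6 and Syt10 had the largest ratios: D1-like nuclei had 190 CPM of Syt6 against 365.996 CPM in D2-like nuclei (log2 ratio -0.93), and 43.9 against 26 CPM of Syt10 (0.66). The other 5 genes lay between -0.16 and 0.19 there. None of the 7 passed a log2 ratio of 1 in that plate, where 3.51% of 10891 genes were higher and 1.97% lower. On the Oprm1-Cre plate, with 24 D2-like nuclei, Syt10 was 1 of 7 past 1 with 19.3 against 6.55 CPM and a log2 ratio of 1.08, and none was lower, where 16.2% of 11112 genes were higher and 6.61% lower. Of those Syt10 reads in D2-like nuclei 77.8% came from 1 nucleus. Syt6 stood at 0.48 in that plate, the reverse of its direction on the Slc32a1-Cre plate, and Sv2b at 0.55 with 137.2 against 92.4 CPM.

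Within single projection neurons the SV2 genes were read in mixed combinations. Among thinned Oprm1-Cre D1-like nuclei, Sv2a with Sv2c was the most frequent pattern (35.6%), ahead of Sv2a alone (20.5%) and of all 3 together (19.1%). Among Slc32a1-Cre D1-like nuclei all 3 together came first (28.4%), followed by Sv2a with Sv2b (19.6%) and Sv2a with Sv2c (12.9%). No SV2 read was found in 4.03% of Oprm1-Cre and 7.73% of Slc32a1-Cre D1-like nuclei. Syt1, Syt4 and Syt6 without Syt10 were read together in 54% of Oprm1-Cre D1-like, 40.2% of Slc32a1-Cre D1-like and 57.4% of Slc32a1-Cre D2-like nuclei. A missing read in a nucleus can be a missed transcript, so these shares are of nuclei with a read at 50000 reads and not of nuclei that express a gene.

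Patch or matrix leaning was read from a score, the mean log2(CPM + 1) of 10 genes of the patches less the same mean over 6 genes of the matrix, none of them a member. Sv2b had been taken as a matrix gene in earlier work on these data and was left out of the score. The relation of Sv2b to the score is therefore no independent finding. The patches are islands of projection neurons rich in mu opioid receptor, and the matrix is the larger compartment around them. The score is a range and not a cell type: it was cut into tertiles within a class and plate, and 100 Oprm1-Cre and 75 Slc32a1-Cre D1-like nuclei lay within 0.5 of a cut. The patch-leaning tertile had a median score of 2.84 among Oprm1-Cre and -0.93 among Slc32a1-Cre D1-like nuclei. Tertiles held 100 Oprm1-Cre D1-like nuclei each, 65 Slc32a1-Cre D1-like nuclei each, and 49, 50 and 49 Slc32a1-Cre D2-like nuclei.

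Sv2b was lower in the patch-leaning tertile in each of the 3 classes with at least 49 nuclei per tertile. It had 111.1 CPM (106.4 to 115.9) in patch-leaning, 136.1 in middle and 166.5 CPM (160.5 to 172.6) in matrix-leaning Oprm1-Cre D1-like nuclei, a log2 ratio of patch over matrix of -0.56. The tertiles of Slc32a1-Cre D1-like nuclei held 252.8, 410 and 420 CPM (log2 ratio -0.72), and those of Slc32a1-Cre D2-like nuclei 230.9, 391 and 376.9 CPM (-0.70). The middle tertile lay with the matrix-leaning one among Slc32a1-Cre nuclei. The thinned share of nuclei with an Sv2b read was 27.6%, 26% and 49% in the patch-leaning, middle and matrix-leaning Oprm1-Cre D1-like nuclei. It was 43.8%, 67.7% and 72.3% in Slc32a1-Cre D1-like and 40.8%, 54% and 71.4% in Slc32a1-Cre D2-like nuclei, so in each of these classes the matrix-leaning tertile held the largest share. The 24 Oprm1-Cre D2-like nuclei, 8 per tertile, had 57.6, 92.1 and 119.1 CPM. Over single nuclei, Pearson's r of log2(CPM + 1) of Sv2b with the score was -0.22 in Oprm1-Cre D1-like (n = 300), -0.31 in Slc32a1-Cre D1-like, -0.26 in Slc32a1-Cre D2-like nuclei and -0.03 in the 24 Oprm1-Cre D2-like nuclei, where the nuclei of a class share a plate and vary in depth. The r of Sv2b with log reads was 0.08, 0.25 and 0.26 in those 3 classes, and the part of depth in the relation was not tested.

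In sums over tertiles, Sv2a leaned the other way in D1-like nuclei. It had 550 CPM in patch-leaning, 450 in middle and 325.1 in matrix-leaning Oprm1-Cre nuclei (log2 ratio 0.75), and 383.3, 397 and 273.2 CPM in the Slc32a1-Cre tertiles (0.48). The Slc32a1-Cre ratio ranged from 0.14 to 0.59 over the alternatives run. Over single nuclei, Pearson's r of Sv2a with the score was 0.17 in Oprm1-Cre and -0.04 in Slc32a1-Cre D1-like nuclei. Among Slc32a1-Cre D2-like nuclei the tertiles held 389, 361.3 and 412 CPM, a log2 ratio of -0.08. Sv2c did not keep a direction, with log2 ratios of 0.48 in Oprm1-Cre D1-like, -0.43 in Slc32a1-Cre D1-like and -0.08 in Slc32a1-Cre D2-like nuclei.

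Among the synaptotagmins, Syt6 had the ratio farthest from 0, -0.72 among Slc32a1-Cre D2-like nuclei, with 259.3 CPM in patch-leaning, 395 in middle and 429 in matrix-leaning nuclei and thinned shares of 57.1%, 64% and 83.7%. Its ratio was -0.31 among Oprm1-Cre and 0.09 among Slc32a1-Cre D1-like nuclei. Syt1 and Syt4 stayed between -0.28 and 0.25 in the 3 classes, and Syt10 between -0.49 and 0.36. None of the 7 genes passed a log2 ratio of 1 in any of these classes, where 4.95% of 11181 genes were higher and 5.58% lower in patch-leaning Oprm1-Cre D1-like nuclei, 7.94% and 8.06% of 11104 in Slc32a1-Cre D1-like nuclei, and 11.8% and 11.3% of 10870 in Slc32a1-Cre D2-like nuclei.

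**Figure D3:**
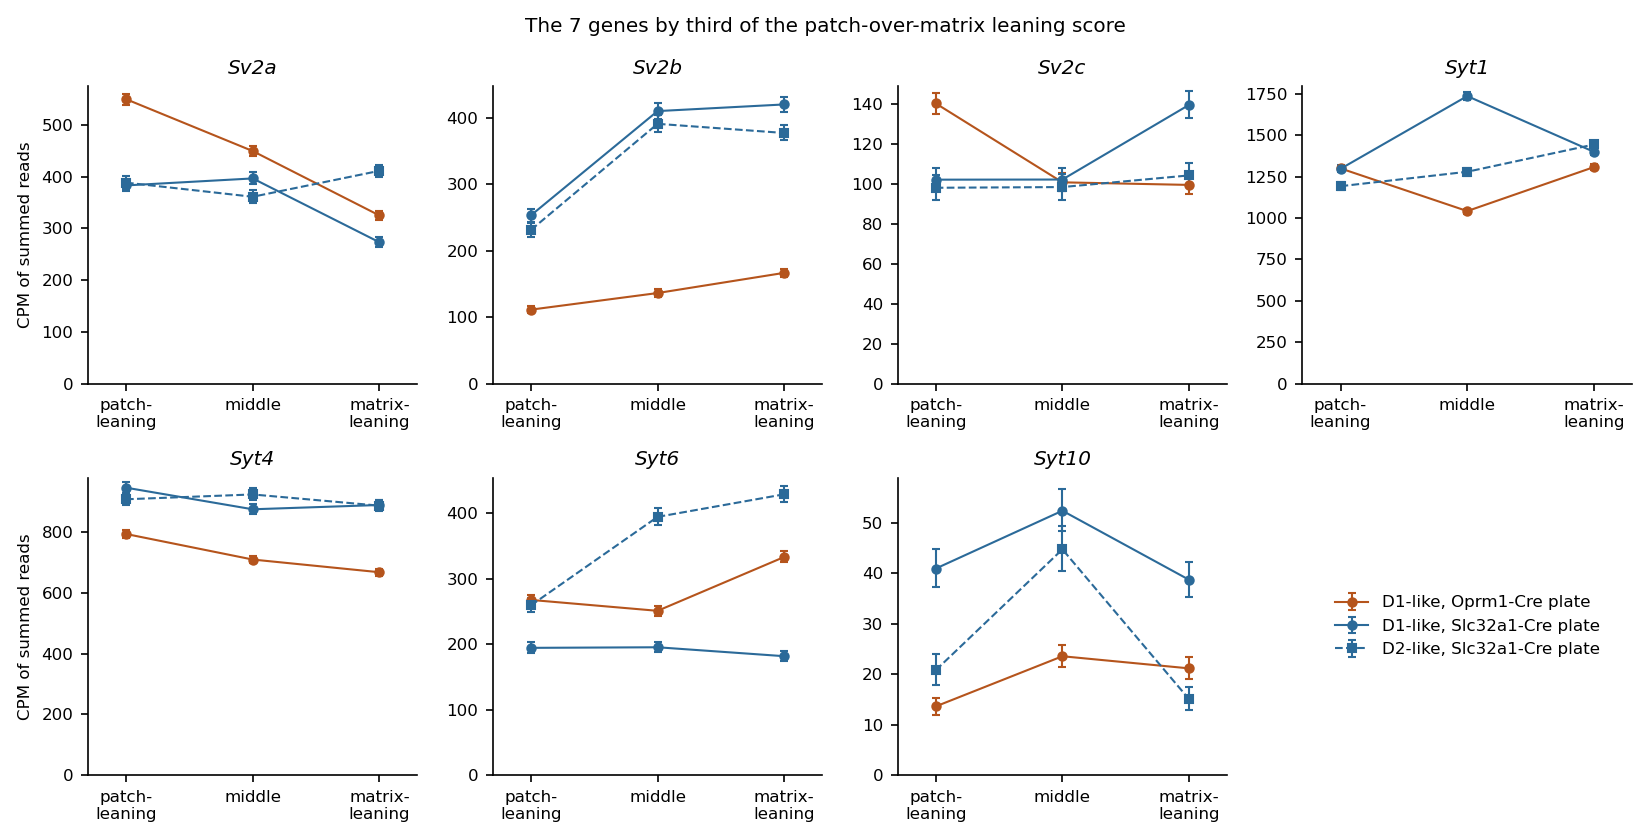
The vertical axes are CPM of reads summed over the nuclei of a tertile of the leaning score, starting at 0, with exact Poisson intervals for counting error, for patch-leaning, middle and matrix-leaning tertiles of 3 classes. Sv2b is lowest in the patch-leaning tertile of all 3 classes, and Sv2a is higher in the patch-leaning than in the matrix-leaning tertile of D1-like nuclei of both plates.

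The plates differ in leaning, with a median score of 0.74 among Oprm1-Cre and -3.10 among Slc32a1-Cre D1-like nuclei, so Sv2b was also set side by side within bands of the score, a comparison chosen after seeing the data. For D1-like nuclei with scores of -4 to -2, Sv2b had 190 CPM in 30 Oprm1-Cre against 428 CPM in 78 Slc32a1-Cre nuclei, a log2 ratio of -1.15. From -2 to 0 it had 141.96 CPM in 81 and 280.8 CPM in 36 nuclei, a log2 ratio of -0.96. From 0 to 2 it had 122.5 CPM (117.3 to 127.9) in 90 and 132.2 CPM (117.3 to 148.4) in 14 nuclei, a log2 ratio of -0.11 with overlapping intervals. The plates thus differed in Sv2b at scores below 0 and not beyond counting error at scores just above 0, where the Slc32a1-Cre plate has few nuclei. Below -4 Sv2b had 217.3 CPM in 9 and 404 CPM in 62 nuclei, a log2 ratio of -0.88, and above 2 it had 123.02 CPM in 90 Oprm1-Cre and 33.1 CPM in only 5 Slc32a1-Cre nuclei.

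The share of D1-like nuclei with an Sv2b read had overlapping intervals in the same 3 bands. It was 70% (50.6% to 85.3%) of Oprm1-Cre and 70.5% (59.1% to 80.3%) of Slc32a1-Cre nuclei from -4 to -2, and 48.1% (36.9% to 59.5%) and 58.3% (40.8% to 74.5%) from -2 to 0, without thinning. From 0 to 2, where the sums were close, it was 24.4% (16% to 34.6%) and 35.7% (12.8% to 64.9%). In these 3 bands 12.2%, 8.52% and 12.3% of all measured genes were lower on the Oprm1-Cre plate past a log2 ratio of 1. Sv2a was lowest in the lowest band of both plates with at least 9 nuclei per band, at 186.5, 255.2, 401, 433 and 577 CPM over the 5 bands of Oprm1-Cre nuclei and 276.7, 360, 444 and 426 CPM over the lower 4 bands of Slc32a1-Cre nuclei. In the 3 bands below 0 Sv2a stood lower in Oprm1-Cre than in Slc32a1-Cre nuclei, the reverse of its ratio over all D1-like nuclei, with log2 ratios of -0.56, -0.49 and -0.15. Syt10 stood lower on the Oprm1-Cre plate in the lower 2 bands, with 7.13 against 40.7 CPM and 12.9 against 44 CPM. The 7.13 CPM rest on 13 reads in 9 nuclei, in a band where 27.1% of measured genes were lower past a log2 ratio of 1. In the next 2 bands Syt10 was not lower, with 24.7 against 19.5 CPM and 23.2 against 18.4 CPM. Above 2 it was again lower, with 14.6 CPM in 90 Oprm1-Cre against 262.3 CPM in only 5 Slc32a1-Cre nuclei, where 16% of genes were lower.

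**Figure D4:**
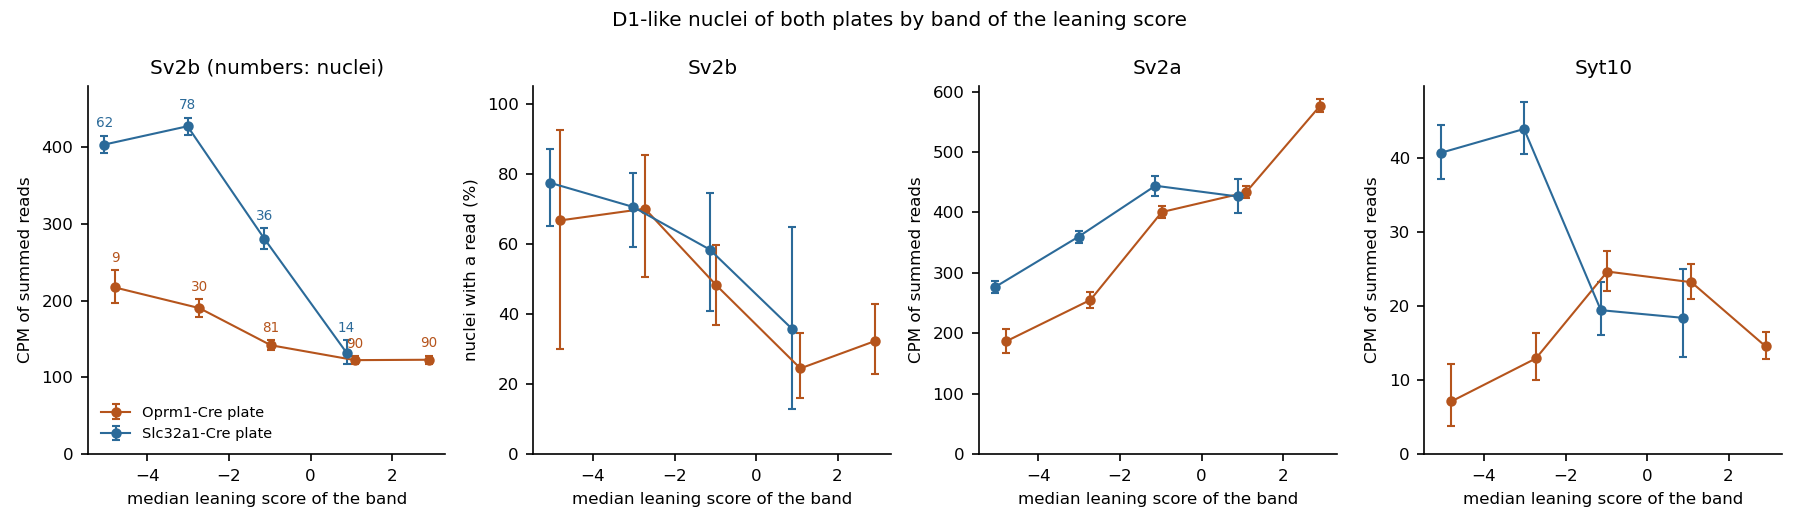
D1-like nuclei of both plates are grouped by bands of the leaning score, with the median score of the band on the horizontal axis, CPM of summed reads or the share of nuclei with a read on the vertical axis, and exact 95% intervals for counting error. Bands with under 9 nuclei are not drawn, and small numbers give nuclei per band. Sv2b sums are lower on the Oprm1-Cre plate at scores below 0 and meet near 1, while the intervals of the shares of nuclei overlap, Sv2a is lowest in the lowest band drawn for both plates, and Syt10 is lower on the Oprm1-Cre plate in the lower 2 bands.

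Interneurons of the striatum are sparse local inhibitory or cholinergic cells, and interneuron-like nuclei carried fewer SV2 genes than SPN-like nuclei. Sv2a was the SV2 gene they carried, with 1183 CPM (1144 to 1224) in interneuron-like against 457 CPM (452 to 462) in SPN-like nuclei on the Oprm1-Cre plate, and 965 CPM (933 to 999) against 372.7 CPM (368.1 to 377.3) on the Slc32a1-Cre plate, log2 ratios of 1.36 in both. A single interneuron-like nucleus had 223.8 to 2981 CPM with a median of 1103 on the Oprm1-Cre plate, where SPN-like nuclei had 0 to 2496 with a median of 353.2. On the Slc32a1-Cre plate interneuron-like nuclei ranged over 0 to 2579 CPM with a median of 929, against 0 to 2450 with a median of 268.1 in SPN-like nuclei. The ranges overlapped, and on each plate the median of interneuron-like nuclei was the higher one.

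Sv2b had 0 reads in the 31 interneuron-like nuclei, against 130 CPM in Oprm1-Cre and 344.6 CPM in Slc32a1-Cre SPN-like nuclei. Counted against a floor of 3 reads per class, it was at least 124.01-fold lower on the Oprm1-Cre plate and at least 395-fold lower on the Slc32a1-Cre plate. Taken as 3 nuclei of the total, 0 of 14 and 0 of 17 nuclei allow shares of up to 21.4% and 17.6%, and the exact binomial intervals of those shares end at 23.2% and 19.5%. Sv2c had 13.3 against 115.2 CPM on the Oprm1-Cre plate and 1.75 against 109.4 CPM on the Slc32a1-Cre plate, log2 ratios of -2.72 and -4.08. In each plate 1 interneuron-like nucleus held every Sv2c read. On the Oprm1-Cre plate it was the Pthlh/Kit-led nucleus without Pthlh or Kit reads, without which the level there was 0. With 50000 reads per nucleus, 13 of 14 and 15 of 17 interneuron-like nuclei carried Sv2a as their only SV2 gene.

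Of the synaptotagmins, Syt6 kept its direction over the plates and Syt1, Syt4 and Syt10 did not. Syt1 had 532 CPM (506 to 560) in interneuron-like against 1241 CPM in Oprm1-Cre SPN-like nuclei, a log2 ratio of -1.21, and 2214 CPM (2164 to 2264) against 1421 CPM on the Slc32a1-Cre plate, a log2 ratio of 0.64. Syt4 had 958 against 735 CPM and 832 against 919 CPM, log2 ratios of 0.38 and -0.14. Syt6 was lower in both, with 114.2 against 272.2 CPM (-1.22) and 180.7 against 278.7 CPM (-0.61), but stood at 0.26 on the Slc32a1-Cre plate where the interneuron cluster was not clustered again, which mixes in SPN-like nuclei. Syt10 had 31.8 against 17.8 CPM on the Oprm1-Cre plate, a log2 ratio of 0.69, and 1.46 against 34.2 CPM on the Slc32a1-Cre plate, a log2 ratio of -2.60. Past a log2 ratio of 1, Sv2a was higher and Sv2b, Sv2c, Syt1 and Syt6 were lower in Oprm1-Cre interneuron-like nuclei, 1 and 4 of 7, where 18.7% of 11563 genes were higher and 28.9% lower. On the Slc32a1-Cre plate Sv2a was higher and Sv2b, Sv2c and Syt10 lower, 1 and 3 of 7, where 17.4% of 11500 genes were higher and 24.4% lower. Without the 2 nuclei that lack the genes naming their sub-clusters the counts were the same and Syt1 stood at -1.77 and 0.63.

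The plates hold different sub-clusters of interneuron-like nuclei, and Syt1 divided these sub-clusters. Sub-clusters were found and named after seeing the data and without any member. Th and Trh, and Sst and Npy, were among the leading genes of the sub-clusters they name. The Pthlh/Kit-led one was led by Nxph1, Dner and Kit, and Pthlh was not among its leading genes. Kit was also among those of the Th/Trh-led one, so it does not set the 2 sub-clusters apart. Th marks neurons with tyrosine hydroxylase, Trh encodes a neuropeptide precursor, Kit and Pthlh are expressed by interneurons of the parvalbumin lineage, and Sst and Npy mark the low-threshold spiking interneurons. Of the 13 Th/Trh-led nuclei, the 12 with a read of Th or Trh held 6 Syt1 reads in 2651628, 2.26 CPM (0.83 to 4.93), with 0 CPM in 9 nuclei and at most 17.9 CPM in the others. The 9 Pthlh/Kit-led nuclei with a read of Pthlh or Kit had 3338 CPM (3254 to 3423), from 1265 to 5304 CPM per nucleus, and the 8 Sst/Npy-like nuclei had 1428 CPM (1372 to 1486), from 555 to 3146 CPM. Among the 9 was a nucleus with Kit but no Pthlh reads, with 120.5 CPM of Th and 324.7 CPM of Chat. The Syt1 level of every one of the 12 lay below that of every nucleus of the other 2 sub-clusters. The log2 ratio of the 12 was -8.85 over the Pthlh/Kit-led and -7.62 over the Sst/Npy-like nuclei. With the nucleus without Th and Trh added, which had 2678 CPM, the level of the 13 was 60.1 CPM, and 96.3% of it came from that nucleus.

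The low Syt1 was present in Th/Trh-led nuclei of both plates. The 10 of the Oprm1-Cre plate had 2.83 CPM (1.04 to 6.15), and both nuclei of the Slc32a1-Cre plate with Th and Trh reads had 0. These 12 nuclei had 136265 to 307431 reads each, and they carried other genes of neurons and vesicles. Snap25, a membrane partner of the release machinery, had 1323 CPM and was read in all 12, from 15 to 4647 CPM. Syp, which encodes the vesicle protein synaptophysin, had 1699 CPM and was read in all 12, and all 12 had a read of Gad2 and none of the glutamate transporter genes Slc17a6 and Slc17a7. Sv2a had 1211 CPM and was read in all 12, with 223.8 to 2981 CPM, and Syt4 had 1107 CPM and was read in 11.

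Other synaptotagmins in the 12 nuclei were led by Syt11, with 2390 CPM in the 12, against 1529 CPM in the 9 Pthlh/Kit-led and 1502 CPM in the 8 Sst/Npy-like nuclei, and Syt13, with 660 against 344.1 and 296.6 CPM. Neither protein is a calcium sensor of the usual kind. Syt2, the fast calcium sensor that serves in place of synaptotagmin 1 at many hindbrain and parvalbumin synapses, had 5.66 CPM (3.17 to 9.33) in the 12 nuclei, read in 2, against 0 reads in both other sub-clusters. Syt9, another fast calcium sensor, had 72.8 CPM, read in 2 of the 12, against 0 reads in both other sub-clusters. Syt3 (164.05 CPM, read in 8), Syt5 (120.7 CPM, read in 10) and Syt7 (61.5 CPM, read in 7) were read in more of the 12 than Syt1, Syt2 or Syt9. Each was higher in another sub-cluster. In the 9 Pthlh/Kit-led and 8 Sst/Npy-like nuclei, Syt3 had 465.3 and 80.2 CPM, Syt5 12.2 and 366.3 CPM, and Syt7 81.7 and 45.6 CPM.

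The other members also differed between the sub-clusters. Syt6 had 53.9 CPM in the 12 Th/Trh-led nuclei, read in 3, against 0.56 CPM in the 9 Pthlh/Kit-led and 449 CPM in the 8 Sst/Npy-like nuclei, where it was read in 5. Syt10 was read in 4 of the 12, at 36.2 CPM in sum, and in no nucleus of the other 2 sub-clusters. Sv2a did not divide the sub-clusters in this way, with 1211 CPM in the 12 against 1064 CPM in the 9 and 844 CPM in the 8, over ranges that overlap. Of all measured genes, 28.2% were higher and 26.1% lower in the Th/Trh-led than in the Pthlh/Kit-led sub-cluster past a log2 ratio of 1, and 33.9% higher and 23.9% lower than in the Sst/Npy-like one, counted over the whole sub-clusters, so ratios past 1 were frequent between these small groups.

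**Figure D5:**
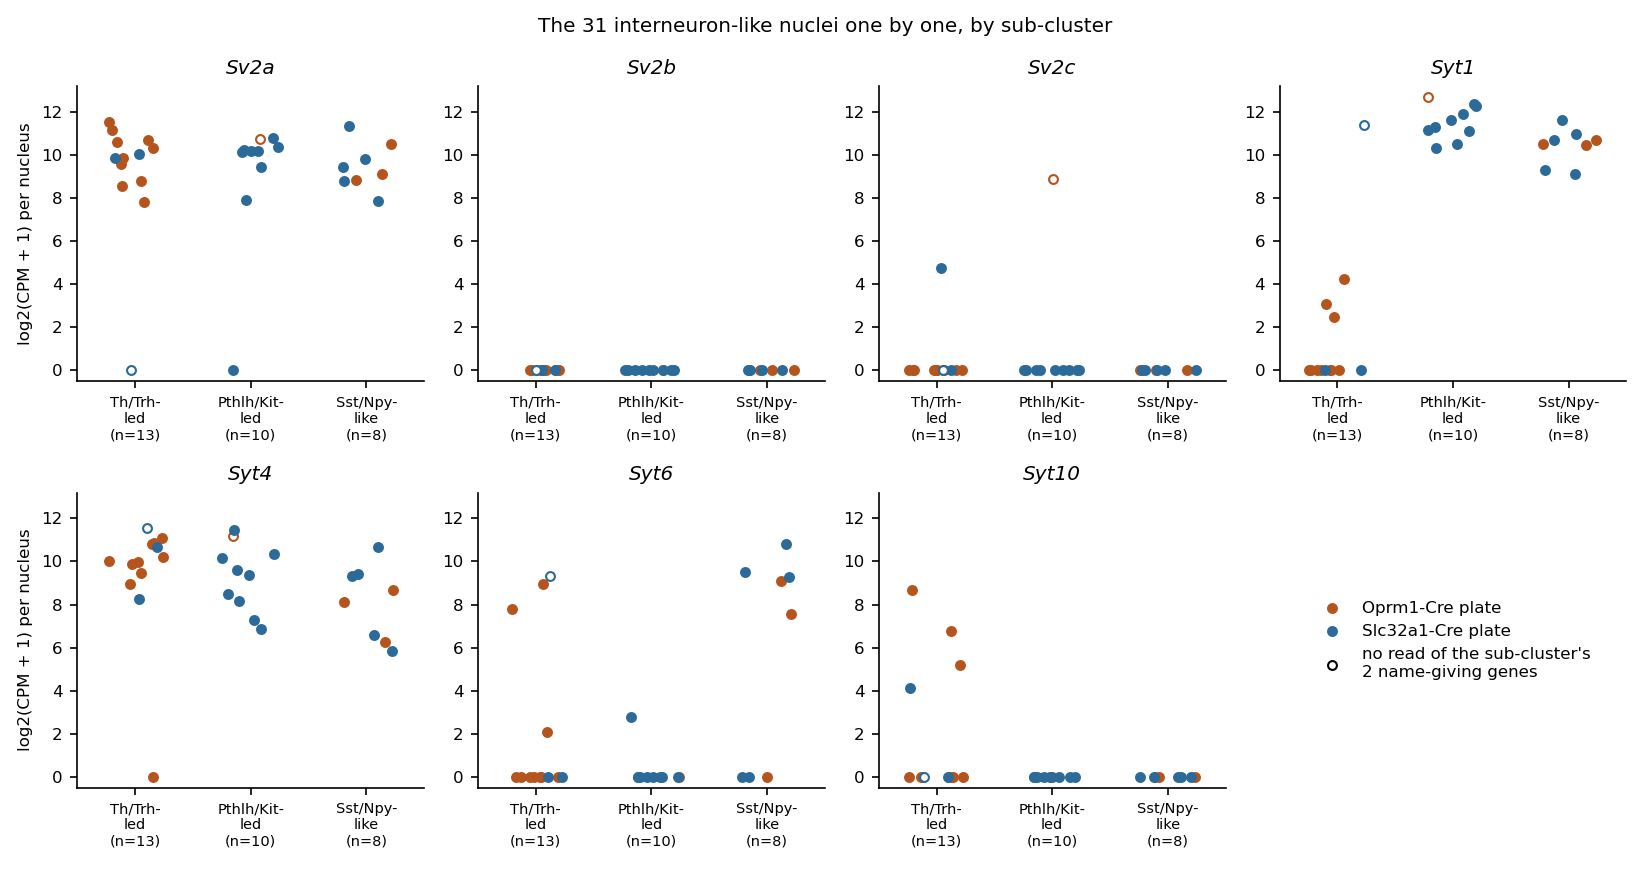
Each point is 1 of the 31 interneuron-like nuclei, with log2(CPM + 1) of the gene on the vertical axis, by sub-cluster and plate, and open circles are nuclei without a read of the 2 genes that name their sub-cluster. Syt1 is at or near 0 in all Th/Trh-led nuclei with filled circles and above 500 CPM in the other sub-clusters, and Sv2b is at 0 throughout.

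A further sub-cluster of 17 SPN-like nuclei, 5 Oprm1-Cre and 12 Slc32a1-Cre, had Otof, Olfm3 and Sema3e among its leading genes. Its Sv2b was 18.2 CPM (13.6 to 23.8), against 247.9 CPM in the other SPN-like nuclei, a log2 ratio of -3.45, with reads in 2 of the 17. Syt10 had 0 reads against 27 CPM. Taken as 3 nuclei of the total, 0 of 17 nuclei allows a share of up to 17.6%. Over all SPN-like nuclei 20.7% had a Syt10 read, so the 17 nuclei set no firm bound on how much lower it was. Syt1 was 2203 against 1317 CPM (0.74), Syt4 1280 against 822 (0.64), Sv2a 628 against 408 (0.62), Syt6 416 against 272.5 (0.60) and Sv2c 152.7 against 111.2 (0.44). The Syt6 direction was not shared by the plates, with 76.3 CPM in the 5 Oprm1-Cre nuclei against 272.2 CPM in all SPN-like nuclei there, and 574 CPM in the 12 Slc32a1-Cre nuclei against 278.7 CPM. With 50000 reads per nucleus Sv2a was read in all 17, Sv2c in 7 and Sv2b in 2. Past a log2 ratio of 1, 2 of 7 were lower and none higher, where 25.3% of 11223 genes were lower and 12.5% higher.

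Other vesicle genes were counted from 2 lists, 13 other synaptotagmins and 30 genes of vesicles and release. Between the plates in D1-like nuclei, 0 of 10 measured synaptotagmins passed a log2 ratio of 1, and of 29 measured release genes Rab3b (110.5 against 49.8 CPM, 1.07) was higher and Synpr (663 against 1374 CPM, -1.05) was lower on the Oprm1-Cre plate. Over all measured genes 2.9% were higher and 1.86% lower. The list medians were 0.01 and -0.03, against -0.00 over all genes. Rab3b encodes a small GTPase of vesicles, and Synpr encodes synaptoporin, a relative of synaptophysin. Rab3b was also higher in patch-leaning D1-like nuclei of both plates, at 177.03 against 67.2 CPM (1.33) and 113.1 against 20.4 CPM (2.22), and in D1-like over D2-like nuclei, at 1.65 and 2.38 in the Oprm1-Cre and Slc32a1-Cre plates. In Slc32a1-Cre D2-like nuclei, Syt9 (0.11 against 34.3 CPM, -2.94) and Napb (87.3 against 346.7 CPM, -1.93), which encodes an attachment protein of the fusion machinery, were lower in the patch-leaning tertile.

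Between interneuron-like and SPN-like nuclei, 3 of 11 measured synaptotagmins were higher and 2 lower on the Oprm1-Cre plate, and 3 higher and 5 lower on the Slc32a1-Cre plate, with list medians of 0.34 and -0.67 against -0.14 and -0.08 over all genes. Syt13 led in both, with 586 against 14 CPM (4.96) and 350 against 14.6 CPM (4.18). Of 29 measured release genes 6 were higher and 7 lower on the Oprm1-Cre plate, and 8 higher and 3 lower on the Slc32a1-Cre plate. Over all measured genes 18.7% were higher and 28.9% lower on the Oprm1-Cre plate, and 17.4% and 24.4% on the Slc32a1-Cre plate. Doc2b, which encodes a high-affinity calcium sensor of spontaneous and asynchronous release, had 0 against 38.8 CPM on the Oprm1-Cre plate and 0.29 against 31.6 CPM on the Slc32a1-Cre plate. Unc13b, a vesicle priming gene, had 0 against 26.2 CPM on the Oprm1-Cre plate and 18.9 against 22.7 CPM on the Slc32a1-Cre plate. Unc13c, another, had 6.64 against 67.4 CPM and 0 against 77.7 CPM in the same order of plates.

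Over single SPN-like nuclei, the genes whose levels went most with a member were found by Pearson's r of log2(CPM + 1), taken within each plate over its share of the 705 nuclei and averaged, for 10675 genes. Nuclei of a plate share plate and genotype and vary in depth, so r is a description. For Sv2b these were Sgk1 (0.24), Id4 (0.23) and Calb1 (0.22), of which Id4 and Calb1 are matrix genes of the leaning score, from which Sv2b had been left out. For Syt1 they included Cx3cl1 (0.33) and Itm2c (0.30), and for Syt10 Wfs1 (0.29), Igfbp4 (0.24) and Ltk (0.23). The first genes for Sv2a, Sv2c, Syt4 and Syt6 were Slc35f1 (0.20), Ppp1r2 (0.21), Nptn (0.28) and Smad4 (0.19), values at which most of the spread over nuclei is not shared.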

How the data were processed

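The authors deposited whole-number read counts per gene and well, in a table for each genotype and a table of both, and their 18878976 shared values were equal. The submitters' processing notes name mm10, SAMtools and Seurat, with no aligner, counter or annotation given in the sources used. Per the labels' protocols, RNA came from a column kit and libraries from a total RNA kit after ribosomal RNA was depleted, and how single nuclei were amplified was not stated. The counts carry no molecular identifiers, PCR reads are not independent molecules, and all intervals and floors cover counting error only. The Slc32a1-Cre labels name a count table under another plate number than the table carries, so wells were assigned by column names, each of which ends exactly 1 sample title.

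Nuclei with at least 1000 genes and 20000 reads on genes were kept, and 92 spike-ins were left out. All 736 kept nuclei had counts of their own. They were clustered with igraph 0.11.9 and leidenalg 0.10.2 (Python 3.11.15, numpy 2.4.6, pandas 2.3.3, scipy 1.17.1, scikit-learn 1.9.0) on 2000 variable genes, 30 components, 15 neighbours and resolution 1, leaving out the 7 members and both vesicle lists. D1-like and D2-like nuclei differed by more than 2 in mean log2(CPM + 1) of their 7 markers each, and 15 and 17 nuclei lay within 0.5 of the limit. The cluster with interneurons was clustered again, with 10 components and 8 neighbours, after seeing that it was mixed. No doublet caller was run, and 78 possible doublets were left out in an alternative.

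CPM were summed per plate and class with exact Poisson 95% intervals, shares have exact Clopper-Pearson 95% intervals, and nuclei were thinned to 50000 reads for shares. The log2 ratio adds 5 CPM to both groups, which understates the change of low genes. Genes with at least 5 CPM in either group were counted as measured. The ratio and the counts past it were tested on simulated plates of all kept nuclei, with changes in genes well above the floor. The intervals were tested on plain Poisson and binomial counts. Small groups, changes in genes near the floor and PCR copies were not simulated. Named genes are the 7 members, up to 4 list genes per comparison with the largest ratio and the 3 genes most like each member, of which some are not reported here. Genes named from lists for the 12 Th/Trh-bearing nuclei were chosen after their values were seen. The members, lists and markers were chosen with earlier results of these data known. Promoters are from RefSeq (GRCm38.p6), positions from GENCODE M21. Alternatives changed the filter, fold limit, added CPM, averaging, classing, doublets and leaning score.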

Additional observations from a re-analysis of the deposited data

Results flagged for a closer look

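In 3 genes the ratio was past 0.5 with opposite signs in 2 groups under the same contrast, and in each case the difference was not tested. Syt1 in interneuron-like over SPN-like nuclei had a log2 ratio of -1.21 in the Oprm1-Cre plate and 0.64 in the Slc32a1-Cre plate, where 10 of 14 and 3 of 17 interneuron-like nuclei were Th/Trh-led. Syt10 in the same contrast had log2 ratios of 0.69 and -2.60, from 3 nuclei with a read in the Oprm1-Cre plate and 1 in the Slc32a1-Cre plate. Syt6 in the Oprm1-Cre over the Slc32a1-Cre plate had log2 ratios of 0.56 in D1-like nuclei and -0.85 in D2-like nuclei.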

How the results depend on the processing

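No paired analysis was possible because each genotype is 1 sample and well numbers pair nothing. Of the ratios of the 7 genes past 1 in 9 comparisons of classes, plates and leaning, none changed sign in the alternatives run. The 3 comparisons of sub-clusters were run, after seeing the data, with 1 CPM added, the mean of the nuclei's CPM and another scaling, where no ratio past 1 changed sign. At a limit of 0.5 in place of 1, Oprm1-Cre over Slc32a1-Cre nuclei had 1 higher gene among D1-like nuclei (14.9% of all measured genes). Sv2b and Syt10 were lower there, as at a limit of 1 (12.1% of all at 0.5). Among D2-like nuclei 1 was higher and 4 lower (23.5% and 29.2% of all). D1-like over D2-like nuclei had 2 higher in the Oprm1-Cre plate (30.4%) and 1 higher and 1 lower in the Slc32a1-Cre plate (14.9% and 10.4%). Interneuron-like nuclei had 2 higher and 4 lower in each plate (30.5% and 40.3% of all genes in the Oprm1-Cre, 30.3% and 36.7% in the Slc32a1-Cre plate). Patch-leaning nuclei had 1 higher and 1 lower among Oprm1-Cre D1-like nuclei (16.8% and 18%), 1 lower among Slc32a1-Cre D1-like nuclei (21.3%) and 2 lower among D2-like nuclei (24.9%). Between plates in D1-like nuclei, 1 gene was lower, not 2, with at least 100000 reads per nucleus, without possible doublets and with each nucleus classed alone, since Syt10 left the limit. With the mean of the nuclei's CPM, 0 genes were higher in D1-like over D2-like Oprm1-Cre nuclei, 2 in Oprm1-Cre interneuron-like nuclei, and 1 was lower in patch-leaning D2-like nuclei. By leaning, a split at the median score gave 1 lower in Oprm1-Cre D1-like nuclei (Sv2b, -1.05). Scores above 0 against below 0 gave 1 higher (Syt10, 1.30) and 1 lower (Sv2b, -1.93) in Slc32a1-Cre D1-like nuclei and 2 lower in D2-like nuclei (Sv2b, -1.32, and Syt6, -1.03). A score without Oprm1, Pdyn and Nr4a1 gave 1 lower in each of the 3 classes (Syt10, -1.59, in the Oprm1-Cre plate; Sv2b, -1.20 and -1.14, in the Slc32a1-Cre plate), and leaving out possible doublets gave 1 lower in D2-like nuclei (Syt6, -1.15). The causes were not tested. Of the alternatives added after seeing the data, the interneuron cluster not clustered again moved Syt1 to -0.29 in the Oprm1-Cre plate and Sv2c to -0.91 in the Slc32a1-Cre plate, since it mixes in SPN-like nuclei. Leaving out the Otof-bearing sub-cluster, or the 2 nuclei that lack the genes naming their sub-clusters, moved no count of members past 1 by over 1.5 times. Small groups limit what depth can show: in 8 to 24 nuclei, 1 nucleus can carry most reads of a low gene.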
